A study of Mus musculus with 30 samples.

Results

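The genes described here encode the core of the class IA PI3K to AKT cascade: the catalytic subunits *Pik3ca* (p110α), *Pik3cb* (p110β) and *Pik3cd* (p110δ), the regulatory subunits *Pik3r1* (p85α) and *Pik3r2* (p85β), the kinase *Pdpk1* (PDK1), and the kinases *Akt1* and *Akt2*. They are a list of 8 genes set by name and function, with no threshold on a measured value, and the list was drawn up with earlier results of these data known. All 8 were among the 13904 genes with an RNA-seq value, and 7 were among the 5806 transcripts with an mRNA half-life. *Pik3r1* has no half-life here. RNA-seq and SLAM-seq were performed on 2 spermatogonial stem cell (SSC) lines, which are cultures of undifferentiated male germ cells derived from mouse testes at postnatal day 7 and grown on fibroblast feeder cells. Both lines carry NANOS2, an RNA-binding protein of undifferentiated spermatogonia, with an N-terminal fusion of V5, Myc, PreScission site, His6 and EGFP (the TAG). One line is heterozygous (Nanos2 TAG/+) and the other homozygous (Nanos2 TAG/TAG) on a C57BL/6 × DBA/2J background. A line that lacks NANOS2 or carries only the untagged protein was not measured by RNA-seq or SLAM-seq, so both groups are NANOS2-positive, and each genotype is 1 line. The labels give no treatment that differs between the lines, and the same 2 lines were used for RNA-seq and SLAM-seq.

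RNA-seq gave 1 library per line (ribosomal RNA-depleted total RNA, single-end reads), with 10979761 recovered reads in the TAG/+ library and 11660446 in the TAG/TAG library. The labels give QIAzol extraction for the TAG/+ library and Trizol for the TAG/TAG library, so genotype, line and reagent cannot be told apart. Levels are given as FPKM, reads per kilobase of gene length and scaled to sequencing depth, where the length is the mean over all annotated transcripts of the gene. Read numbers were recovered from FPKM and this length, and intervals are exact 95% intervals of these reads, which cover counting error only. SLAM-seq labels newly made RNA with 4-thiouridine and follows its loss during a chase. It gave 1 half-life in minutes per transcript and line, which the authors fitted across the 12 chase libraries of that line and for which no error is given. The assignment of the RNA-seq columns and half-life tables to lines rests on the names that they carry. Of the SSC markers, *Zbtb16* was at 107 FPKM in TAG/+ and 102 in TAG/TAG, *Nanos2* at 27.5 and 23.8, and *Etv5* at 46.0 and 178. The GDNF receptor genes *Ret* and *Gfra1* were at 73.2 and 181 FPKM and at 56.2 and 111 FPKM in the same order. All 9 SSC and germ cell markers with a value, of 10 listed, were above 0 in both lines. Of these 9, 3 (*Etv5*, *Ret* and *Gfra1*) were at least 1.5-fold higher in TAG/TAG and 0 at least 1.5-fold lower. Over all genes with a mean FPKM of at least 1, the shares were 20.8% and 18.6%.

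Class IA PI3K is a dimer of 1 catalytic and 1 regulatory subunit. It is recruited to activated receptor tyrosine kinases or, for p110β, also to G protein-coupled receptors, and it makes the membrane lipid PIP3. PIP3 brings PDK1 and AKT to the membrane, where PDK1 phosphorylates the activation loop of AKT. In SSCs the cascade acts downstream of GDNF and other growth factors that maintain self-renewal.

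The study derived a 7-base consensus for NANOS2 from CRAC, a cross-linking method, and NANOS2 binds mostly in 3′ UTRs. The consensus corresponds to 4 heptamers. With G at the third base it reads AUGAAAU when an A precedes the last base, whereas it reads AUGAAUU when a U does. With U at the third base the same choice gives AUUAAAU for the form with A, while the remaining form is AUUAAUU with U. The heptamers were searched on the sense strand of the 3′ UTR of 1 principal coding transcript per gene (GENCODE M21, GRCm38). Among the 8 genes, 4 held a total of 11 matches and 4 held none. *Pik3ca* had 5 matches in 5655 bases, *Pdpk1* 3 in 5346 bases, *Pik3r1* 2 in 4317 bases and *Pik3cb* 1 in 3059 bases. *Akt2* had none in 2685 bases, *Pik3cd* none in 1472 bases, *Akt1* none in 877 bases and *Pik3r2* none in 514 bases. Of all 20737 genes with a coding 3′ UTR, 37.6% had at least 1 match, and the share depends on length. Among genes whose 3′ UTR was within 10% of the length of the gene named, 86.1% had a match for *Pik3ca*, 87.1% for *Pdpk1*, 82.4% for *Pik3r1* and 72.3% for *Pik3cb*. The same share was 68.7% for *Akt2*, 49.5% for *Pik3cd*, 34.9% for *Akt1* and 23.4% for *Pik3r2*. The median number of matches in 3′ UTRs of similar length was 3 for *Pik3ca*, 3 for *Pdpk1*, 2 for *Pik3r1* and 1 for *Pik3cb*. *Pdpk1*, *Pik3r1* and *Pik3cb* were thus at this median and *Pik3ca* above it. It was 1 for *Akt2* and 0 for *Pik3cd*, *Akt1* and *Pik3r2*. The genes with matches were therefore those with the 4 longest 3′ UTRs, and of those without, *Akt2* had the 3′ UTR for which most genes of that length hold a match. A match is a description of letters and not a measured binding site. Binding itself was measured in the study by CRAC. The paper names *Pik3cb* mRNA among the NANOS2 targets and shows a peak in it. It also reports PI3K/AKT signalling among the pathways enriched in the targets. Whether the *Pik3cb* peak lies at the match was not examined here.

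The following windows show 1 match for each gene that had one, with 10 bases on each side, 5′ to 3′, and the heptamer in capitals. They are shown because they are where a NANOS2 site could lie in the PI3K genes by sequence. For genes with more than 1 match, the one nearest to the stop codon is shown.
Pik3ca: auuaaguuacAUGAAUUggagaagaag
Pik3cb: ugcaaagggaAUGAAAUccugaagcuc
Pik3r1: aauuaaaacuAUGAAAUauuuuacagu
Pdpk1: caguaagcaaAUGAAUUaaccaauaug
The *Pik3ca* window is at chr3:32463264-32463290 on the plus strand in exon 20, and starts a stretch with 4 further matches downstream. The *Pik3cb* window is at chr9:99039604-99039630 on the minus strand in exon 24, and its heptamer starts at base 93 of the 3′ UTR. The *Pik3r1* window is at chr13:101683818-101683844 on the minus strand in exon 16. The *Pdpk1* window is at chr17:24074442-24074468 on the minus strand in exon 14, and all 3 *Pdpk1* matches start at base 4568 or later of its 3′ UTR. Of the 11 matches, the heptamers of *Pik3cb* and the first of *Pik3r1* had AUGAAAU as their letters, 1 of *Pik3ca* was written AUUAAAU in full, and all others read AUGAAUU.

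The mRNAs of the catalytic subunits differed in deposited FPKM by up to about an order of magnitude, and that of p110δ was the most abundant in both lines. Protein levels were not examined here. *Pik3cd* (chr4:149649168-149702571, minus strand, GRCm38) was at 70.1 FPKM in TAG/+ and 83.2 in TAG/TAG, from 1963 and 2507 reads. *Pik3cb* (chr9:99036654-99140621, minus strand) was at 15.7 and 16.7 FPKM, from 694 and 792 reads. *Pik3ca* (chr3:32397671-32468486, plus strand), the p110α subunit that is central to insulin and growth factor signalling in many tissues, was at 7.31 and 8.17 FPKM, from 443 and 533 reads. The order *Pik3cd*, *Pik3cb*, *Pik3ca* was the same in both lines, and the ranges over the lines did not overlap between neighbours. p110δ is best known from leukocytes, and its mRNA accounted for 75.3% of the summed class IA catalytic FPKM in TAG/+ and 77.0% in TAG/TAG. *Pik3ca* accounted for 7.85% and 7.56%. In the ranking of all genes, 86.3% and 88.7% of genes were lower than *Pik3cd*, and 43.6% and 45.0% were lower than *Pik3ca*.

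The size of these ratios depended on the gene length used, because the catalytic genes differ in how many short transcripts are annotated. *Pik3cd* has 14 annotated transcripts of 2566 bases on average and a principal transcript of 4921 bases, whereas *Pik3ca* has 4 transcripts of 5554 bases on average and a principal transcript of 8917 bases. As deposited, the ratio of *Pik3cd* to *Pik3ca* was 9.59 in TAG/+ and 10.2 in TAG/TAG (9.90 for the means of both lines). With reads divided by the principal transcript length the ratio of the means was 8.29, and with the merged length of all exons it was 6.64. The ratio of *Pik3cb* to *Pik3ca* was less dependent on it, at 2.09, 2.10 and 1.93 in the same order. *Pik3cd* to *Pik3cb* was 4.74, 3.95 and 3.45. The order of the catalytic subunits was kept under each of these 3 lengths, and *Pik3cd* held 68.3% to 77.0% of the catalytic sum over both lines and all 3 lengths.

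Of the regulatory subunits, *Pik3r2* (chr8:70768176-70776713, minus strand) was at 165 FPKM in TAG/+ and 184 in TAG/TAG, from 1910 and 2296 reads. *Pik3r1* (chr13:101680563-101768217, minus strand), which encodes p85α, the main regulatory subunit in many tissues, was at 0.979 FPKM in TAG/+ (95% interval 0.621 to 1.47, 23 reads) and 5.46 in TAG/TAG (4.59 to 6.45, 138 reads). The intervals of the *Pik3r1* level do not overlap between the lines. *Pik3r2* exceeded *Pik3r1* in both lines, 168-fold in TAG/+ and 33.7-fold in TAG/TAG. The other p85-like gene, *Pik3r3* (p55γ), was at 56.9 and 36.5 FPKM, so that *Pik3r2* made up 74.0% and 81.4% of the summed FPKM of the 3 regulatory genes and *Pik3r1* 0.440% and 2.42%. With the principal transcript length the share of *Pik3r2* was 66.1% and 75.8%, and with the merged exon length 59.9% and 71.1%. Only 12.8% of all genes were lower than *Pik3r1* in TAG/+, and 36.9% in TAG/TAG.

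*Pdpk1* (chr17:24073680-24150924, minus strand) was at 44.7 FPKM in TAG/+ and 36.3 in TAG/TAG, from 1041 and 908 reads. *Akt1* (chr12:112653821-112674884, minus strand) was at 122 and 106 FPKM, from 1285 and 1201 reads. *Akt2* (chr7:27591552-27640826, plus strand), the isoform known for its part in insulin-stimulated glucose uptake, was at 169 and 139 FPKM, from 2819 and 2495 reads. The 2 AKT genes were within 1.5-fold of each other, with *Akt2* to *Akt1* at 1.39 in TAG/+ and 1.31 in TAG/TAG. The ratio of the means was 1.35 as deposited, 1.27 with the principal transcript length and 1.23 with the merged exon length. Among 31-base words of the annotated *Akt2* transcripts, 13.3% also occur in other genes, among them the pseudogene *Akt2-ps*, against 0.0724% for *Akt1*, so the *Akt2* level is less certain than that of *Akt1*. For *Pik3cb* the shared part was 5.98%, and for the other 5 genes it was at most 1.06%.

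**Figure D1:**
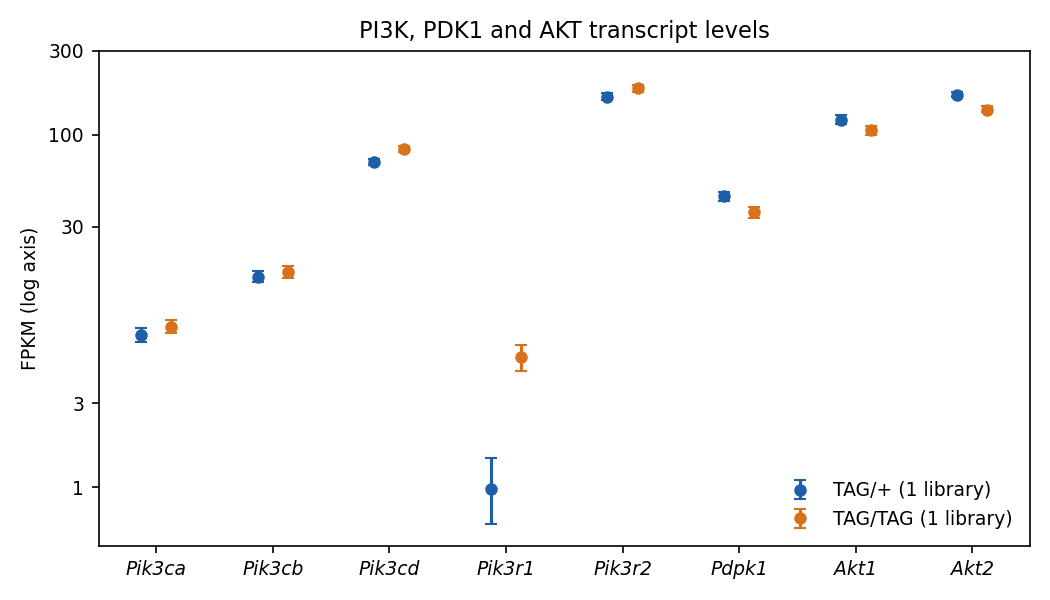
FPKM (log axis) of the 8 genes in the TAG/+ library (blue) and the TAG/TAG library (orange). Each point is 1 library, and bars are exact 95% counting intervals. *Pik3r2*, *Akt1* and *Akt2* are above 100 in both lines, and *Pik3r1* is lowest in both, at 0.979 and 5.46.

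In descending order of mean FPKM the 8 genes were *Pik3r2* (174), *Akt2* (154), *Akt1* (114), *Pik3cd* (76.7), *Pdpk1* (40.5), *Pik3cb* (16.2), *Pik3ca* (7.74) and *Pik3r1* (3.22). *Pik3r2* and *Akt2* did not differ beyond the spread between the lines, and they exchanged places, with *Akt2* first in TAG/+ and *Pik3r2* first in TAG/TAG. The ranges of all other neighbours did not overlap. The spread of levels over the 8 genes was 173-fold in TAG/+ and 33.7-fold in TAG/TAG, with *Pik3r1* setting the difference. The order also depended in part on length. With the principal transcript length *Akt1* and *Pik3cd* overlapped, and with the merged exon length *Pik3cd* (28.8 and 34.1 depth-scaled reads per kilobase) ranked above *Akt1* (28.7 and 25.0) and *Pik3cb* (8.84 and 9.38) above *Pdpk1* (8.73 and 7.07). *Pik3r2* remained first and *Pik3r1* last by mean under all 3 lengths.

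Between the lines, 7 of the 8 genes were within 1.5-fold of each other and *Pik3r1* was not. *Pik3r1* was 5.58-fold higher in TAG/TAG (95% interval of the read ratio 3.57 to 9.09). Its difference on the log2(FPKM + 0.1) scale was 2.37. It was thus 1 of 8 genes at least 1.5-fold higher in TAG/TAG, against 20.8% of the 12546 genes with a mean FPKM of at least 1, and 0 of 8 were at least 1.5-fold lower, against 18.6%. Both counts are near this background or below it. A larger difference in either direction was present in 4.62% of these genes, and in 9.32% of the 3346 genes within 2-fold of the mean FPKM of *Pik3r1*, where differences between the libraries were wider. *Pik3r1* reaches a mean of 1 through TAG/TAG, as its TAG/+ value is 0.979. Without this filter the counts for the 8 genes were unchanged.

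Markers of fibroblasts, the feeder cells, were mostly higher in TAG/TAG, as *Pik3r1* was. Of the 12 listed fibroblast (feeder) markers, 10 had a value, none was at 0, and 9 were higher in TAG/TAG, against 49.8% of all genes, 4 of them at least 1.5-fold, against 20.8%. Their summed FPKM was 315 in TAG/+ and 382 in TAG/TAG, of which *Fn1* made up 254 and 280. Ratios of TAG/TAG to TAG/+ ran from 0.956 for *Col3a1* to 10.2 for *Pdgfrb*, a receptor of mesenchymal cells at 0.660 and 6.75 FPKM. Of the 9 SSC and germ cell markers with a value, 4 were higher in TAG/TAG, against 49.8% of all genes. At least 1.5-fold higher were 3 of them, against 20.8%, and 0 were at least 1.5-fold lower, against 18.6%. The median log2 difference was 0.52 over the feeder markers and -0.07 over the SSC and germ cell markers. The labels describe feeder depletion, and the study's methods describe sorting with a gate that leaves out residual feeder cells. The part of feeder RNA in the *Pik3r1* difference was not tested. In these bulk libraries, a change in the number of cells of a type cannot be told apart from a change in RNA per cell.

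The other 7 genes differed by less. *Pik3cd* was 1.19-fold (interval 1.12 to 1.26) and *Pik3r2* 1.12-fold (1.05 to 1.19) of the TAG/+ level in TAG/TAG. *Pdpk1* was at 0.811 (0.741 to 0.887), *Akt2* at 0.822 (0.779 to 0.868) and *Akt1* at 0.869 (0.802 to 0.940) of it. *Pik3ca* at 1.12 (0.984 to 1.27) and *Pik3cb* at 1.06 (0.957 to 1.18) did not differ between the lines beyond counting error. The ratio was above 1 for 5 of the 8 genes, as for 49.8% of all genes, and 2 of these 5 had intervals that hold 1. The interval was above 1 for 3 of 8 genes and below 1 for 3 of 8, against 35.0% and 35.1% of the 12534 genes with recovered reads, so intervals of this kind, which hold no variation between cultures, exclude 1 for most genes. Differences larger in size than that of *Pdpk1*, whose log2 difference of -0.30 was the largest among these 7, were present in 63.8% of genes. The median log2 difference was 0.12 over the 8 genes and -0.00 over all genes with a mean FPKM of at least 1.

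**Figure D2:**
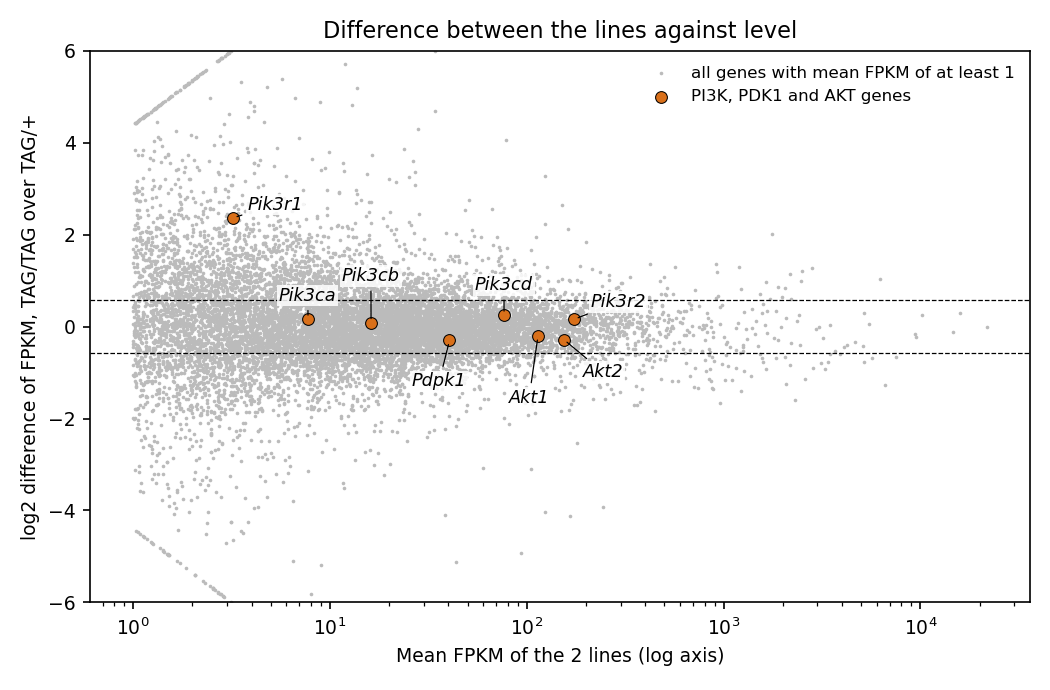
Log2 difference of FPKM + 0.1 (TAG/TAG over TAG/+) against the mean FPKM of the lines (log axis) for all 12546 genes with a mean FPKM of at least 1 (grey) and the 8 genes (orange). Dashed lines mark 1.5-fold, oblique rows at the left are genes at 0 in 1 library, and 77 genes lie beyond the axis. *Pik3r1* at 2.37 is the only one of the 8 outside the dashed lines.

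The half-lives of the 7 genes with a value spanned 3.48-fold in TAG/+ and 2.90-fold in TAG/TAG. Among the catalytic subunits, *Pik3ca* mRNA was the shortest-lived in both lines, at 135 min in TAG/+ and 114 min in TAG/TAG. *Pik3cb* was at 160 and 230 min, and *Pik3cd* at 221 and 226 min. *Pik3ca* was thus below both others in each line, whereas *Pik3cb* and *Pik3cd* overlapped over the lines and exchanged order. The half-life of *Pik3cd* was 1.63 times that of *Pik3ca* in TAG/+ and 1.98 times in TAG/TAG, and that of *Pik3cb* 1.18 and 2.01 times. For *Pik3cd* and *Pik3ca* the FPKM ratio of 9.90 was larger than the half-life ratio of 1.79 for the means of both lines.

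*Pik3r2* mRNA had half-lives of 264 min in TAG/+ and 280 min in TAG/TAG. *Akt1* was at 246 and 306 min and *Akt2* at 288 and 331 min. *Akt2* was the longer-lived AKT mRNA in both lines, 1.17 and 1.08 times *Akt1*, but the ranges of the 2 genes over the lines overlap. *Pdpk1* was at 472 min in TAG/+ and 262 min in TAG/TAG, the longest of the 7 in TAG/+ and below *Akt2*, *Akt1* and *Pik3r2* in TAG/TAG. By the mean of both lines the order was *Pdpk1* (367 min), *Akt2* (309), *Akt1* (276), *Pik3r2* (272), *Pik3cd* (224), *Pik3cb* (195) and *Pik3ca* (125). Only *Pik3r2* and *Pik3cd*, and *Pik3cb* and *Pik3ca*, were neighbours whose ranges did not overlap.

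The median half-life over all 5806 transcripts was 224.1 min in TAG/+ and 225.8 min in TAG/TAG. *Pik3r2*, *Pdpk1*, *Akt1* and *Akt2* were above it in both lines (4 of 7, against 39.8% of all transcripts), and *Pik3ca* alone was below it in both (1 of 7, against 39.8%). *Pik3cb* and *Pik3cd* lay below it in TAG/+ and above it in TAG/TAG, *Pik3cd* close to the median in each. For *Pik3ca*, 16.3% of transcripts in TAG/+ and 12.1% in TAG/TAG had a shorter half-life, and for *Akt2* 74.5% and 80.2%. The median half-life of transcripts within 2-fold of a gene's mean FPKM was longer for genes of higher FPKM, from 177 min for *Pik3ca* to 285 min for *Pik3r2* in TAG/+. Against transcripts within 2-fold of its own mean FPKM, *Pik3ca* was still below the median of 177 min in TAG/+ and 174 min in TAG/TAG. *Pik3cd* (against 249 and 253 min) and *Pik3r2* (against 285 and 298 min) were below the median of such transcripts too. *Akt1* was below it in TAG/+ (246 against 264 min) and above it in TAG/TAG (306 against 269 min). *Pik3cb* was likewise below it in TAG/+ and above it in TAG/TAG. *Pdpk1* and *Akt2* were above it in both lines.

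*Pdpk1* was the only 1 of the 7 whose half-lives differed by at least 1.5-fold. It was 1.80 times longer in TAG/+, which makes 1 of 7 at least 1.5-fold shorter in TAG/TAG against 10.7% of transcripts, and 0 of 7 at least 1.5-fold longer against 10.0%. A larger difference in either direction was present in 10.5% of transcripts. *Pdpk1* FPKM was lower in TAG/TAG as well, at 0.811 of the TAG/+ level. *Pik3cb* was next, at 1.43 times in TAG/TAG, with a larger difference in 25.3% of transcripts and an FPKM ratio of 1.06. *Akt1* was at 1.24, *Akt2* at 1.15, *Pik3r2* at 1.06, *Pik3cd* at 1.02 and *Pik3ca* at 0.842 times. For *Akt1* and *Akt2*, FPKM was lower and half-life longer in TAG/TAG. The median log2 half-life difference was 0.08 over the 7 genes and 0.04 over all transcripts. Without an error on the half-lives, none of these differences could be set against the spread between cultures.

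**Figure D3:**
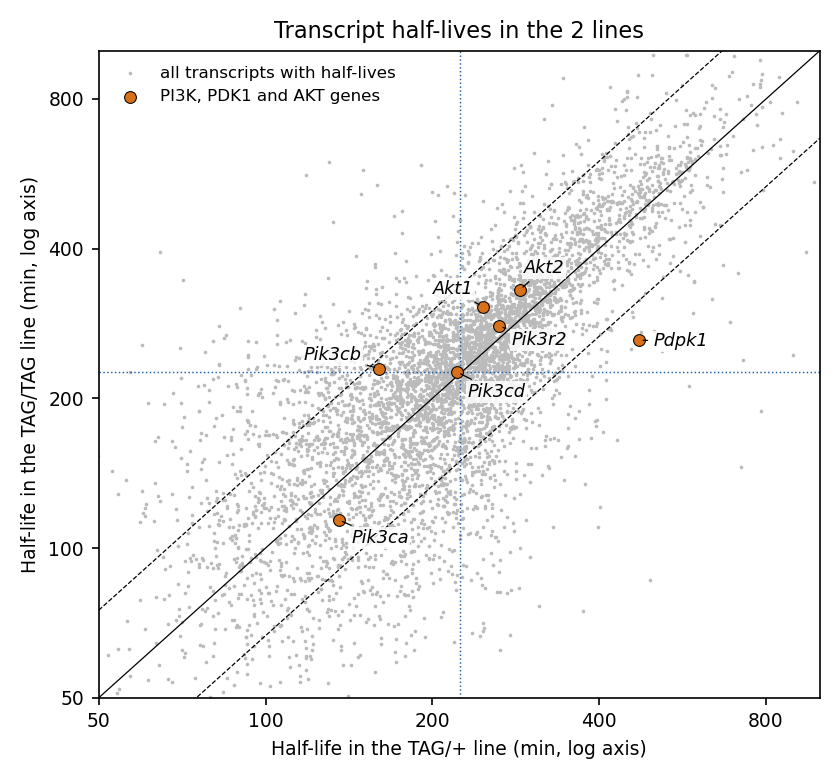
Half-life in the TAG/TAG line against half-life in the TAG/+ line (min, both axes log) for transcripts listed in both lines (grey, 5682 of 5806 lie within the axes) and the 7 genes (orange). The solid line marks equal half-lives, dashed lines 1.5-fold and dotted lines the median of each line. *Pdpk1* lies below the lower dashed line at 472 and 262 min, and *Pik3ca* is the lowest of the 7 at 135 and 114 min.

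Set beside the heptamer matches, the 4 genes without a match (*Pik3cd*, *Pik3r2*, *Akt1* and *Akt2*) were the 4 with the highest mean FPKM, and the 4 with matches were the 4 with the lowest. The half-lives of those with a match were the shortest (*Pik3ca* with 5 matches, then *Pik3cb* with 1) and the longest (*Pdpk1* with 3) by the mean of both lines. The 4 genes with matches are also those with the longest 3′ UTRs and principal transcripts, so these features cannot be told apart over 8 genes.

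**Figure D4:**
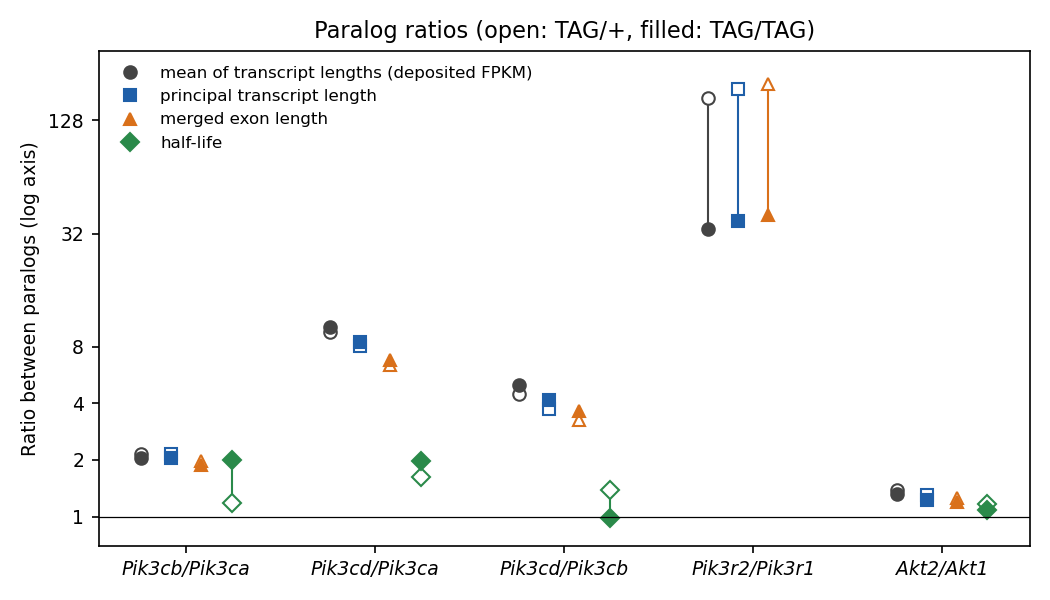
Ratios between paralogs (log axis) in the TAG/+ line (open) and the TAG/TAG line (filled) for FPKM as deposited (grey), for reads per principal transcript length (blue), for reads per merged exon length (orange) and for half-life (green). As deposited, the FPKM ratio of *Pik3r2* to *Pik3r1* is 168 in TAG/+ and 33.7 in TAG/TAG. It is 187 and 37.4 with the principal transcript length and 200 and 40.2 with the merged exon length. The deposited FPKM ratio of *Akt2* to *Akt1* is 1.39 and 1.31, and the half-life ratio of *Pik3cd* to *Pik3cb* lies on both sides of 1.

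Of 44 further genes of the pathway listed by role, 40 had an FPKM value and 36 a mean of at least 1. Of these, 6 were at least 1.5-fold higher in TAG/TAG, 5 at least 1.5-fold lower and 25 within 1.5-fold, with a median log2 difference of -0.08. Among the 6, *Pik3r5* and *Pik3c2g* reach a mean of 1 only through TAG/TAG, the line where they are higher. The share past 1.5-fold is below the background of 20.8% higher and 18.6% lower in each direction. Of 4 other class I subunit genes, the 3 with a mean FPKM of at least 1 were all past 1.5-fold. Of these, 2 were lower and 1 higher in TAG/TAG, against the same background, and 3 genes are too few to describe the class. *Pik3r3* was at 0.642 (interval 0.594 to 0.693) of its TAG/+ level in TAG/TAG. *Pik3r6*, a regulatory subunit of class IB PI3K that is outside the rule for named genes and named because it completes this count, was at 0.577 (0.428 to 0.773), from 124 and 77 reads. *Pik3r5*, the other class IB regulatory subunit, had the largest difference of the 36 genes, with 4 reads in TAG/+ and 87 in TAG/TAG (0.178 and 3.61 FPKM, ratio 20.2, interval 7.62 to 75.8). The place of *Pik3r5* among the 36 genes, and among the 3 class I genes counted, rests on its TAG/TAG value. *Pik3cg*, the class IB catalytic subunit p110γ, was at 0.413 and 1.44 FPKM, from 17 and 64 reads, below the mean of 1 required for the counts.

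Of the 6 negative regulators with a mean FPKM of at least 1, 1 was at least 1.5-fold higher and 2 at least 1.5-fold lower, against 20.8% and 18.6% of all genes. No adaptor of 6 was past 1.5-fold, and 1 of 10 genes listed as AKT substrates or as AKT-binding was. The latter was *Cdkn1b*, the cell cycle inhibitor p27, which had the lowest log2 difference of these 36 genes, at 21.8 FPKM in TAG/+ and 9.72 in TAG/TAG (ratio 0.446, interval 0.390 to 0.510), with half-lives of 196 and 346 min. Half-lives were listed for 26 of the 44 genes, of which 4 were at least 1.5-fold longer in TAG/TAG and 2 at least 1.5-fold shorter. These counts are near the 10.0% and 10.7% of all transcripts. The extremes were *Prr5*, an mTORC2 subunit, at 175 and 1745 min, and *Bad*, a pro-apoptotic AKT substrate without an FPKM value here, at 273 and 81.2 min. *Trib3*, an AKT-binding pseudokinase at 126 and 82.8 min, was the other gene at least 1.5-fold shorter. The *Prr5* value of 1745 min is longer than the last chase time of 1440 min. Half-lives were below the median in both lines for 15 of 26 and above it in both for 7, against 39.8% of all transcripts for each, with medians of 189 and 197 min.

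**Figure D5:**
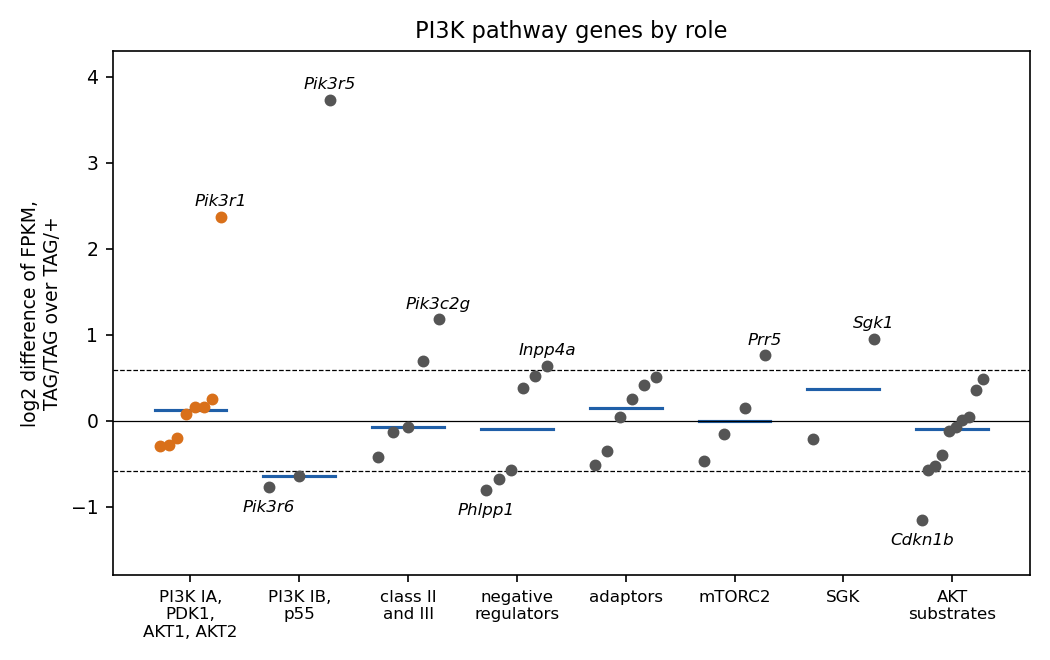
Log2 difference of FPKM + 0.1 (TAG/TAG over TAG/+) for the 44 PI3K pathway genes with a mean FPKM of at least 1, the 8 core PI3K, PDK1 and AKT genes (orange) included, by role. Blue lines are medians of each role and dashed lines mark 1.5-fold. Labels name the highest and lowest gene of a role where it lies past 1.5-fold, with *Pik3r5* at 3.73, *Pik3r1* at 2.37 and *Cdkn1b* at -1.16.

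Over both FPKM values and both half-lives, on a log2 scale and by Euclidean distance, each of the 7 genes was compared with 5143 other genes. The gene nearest to *Pik3cd* was *Gsk3a* (67.8 and 87.0 FPKM, 227 and 235 min, distance 0.10), which encodes a kinase that AKT phosphorylates and is on the list of AKT substrates. The nearest to *Pik3ca* was *Msl2* (distance 0.11), to *Pik3cb* *Rpf1* (0.21), to *Pik3r2* *Setd1a* (0.13), to *Akt1* *Dnajc8* (0.10) and to *Akt2* *Bub1b* (0.14). *Pdpk1* had the most distant nearest gene, *Trim37* (53.2 and 41.8 FPKM, 422 and 299 min, distance 0.41). Within a distance of 0.5 lay 2 genes for *Pdpk1* and 32 to 139 for each of the other 6. With 4 values per gene, closeness of this kind is a description only.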

How the data were processed

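RNA-seq FPKM values and SLAM-seq half-lives of the TAG/+ and TAG/TAG lines were analysed. FPKM values were computed by the authors, whose processing notes name kallisto and DESeq2 without roles. Half-lives (min) were fitted by the authors with SlamDunk and nls (first-order decay, normalized to the start of the chase, technical replicates collapsed). CRAC libraries were not analysed here. FPKM multiplied by the mean transcript length (GENCODE M21, GRCm38) gave whole reads (within 0.05) for 100% of 11174 and 11119 genes with up to 1000 reads. Whether these were counted reads or rounded estimates is not given in the sources used here. FPKM was scaled to 10908790 (TAG/+) and 11738620 (TAG/TAG) reads, not exactly the summed reads. The scripts were tested on simulated data.

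Differences were log2(FPKM + 0.1) for genes with a mean FPKM of at least 1, and 1.5-fold was the limit for counts. With 1 library per line no test was run. Intervals were exact Poisson and Clopper-Pearson intervals at 95%, and repeated reads of 1 molecule cannot be recognised in them. Alternatives were pseudocounts, folds, filters, median scaling, other gene lengths and each line alone. The comparison with genes of similar FPKM was added after seeing the data. Named were all 8 genes, *Pik3cg*, *Pik3r3*, the largest rise and fall of the other pathway genes, and the nearest gene to each. Some items of the lists are not reported here. The genes and lists were chosen with earlier results of these data known. Python 3.11.15, numpy, pandas, scipy and matplotlib were used.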

Additional observations from a re-analysis of the deposited data

How the results depend on the processing

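With 1 library per line, no difference between the lines could be recomputed without a library. No paired analysis was possible because each group holds 1 library and no test was run. Of 31 recomputed differences of single genes, 30 moved by less than their counting interval or, for half-lives, by less than 0.1 on the log2 scale. The exception was *Pik3r1*, at 1.71 with a pseudocount of 1 against 2.37. Dividing each library by its median FPKM shifted log2 differences by 0.01. A lower limit on the half-life fold gave 1 gene longer in TAG/TAG, and a fold of 2 gave 0 genes shorter. Against transcripts within 2-fold of its FPKM, 3 genes rather than 1 were below the median half-life in both lines. With the principal transcript length, the ratio of the mean FPKM was 8.29 for *Pik3cd* to *Pik3ca*, 3.95 for *Pik3cd* to *Pik3cb* and 1.27 for *Akt2* to *Akt1*. With the merged exon length these were 6.64, 3.45 and 1.23, and *Pik3cb* to *Pik3ca* was 1.93. The change of length is the cause by construction. In single lines, the FPKM ratio was 2.04 to 2.15 for *Pik3cb* to *Pik3ca*, 9.59 to 10.2 for *Pik3cd* to *Pik3ca*, 4.47 to 5.00 for *Pik3cd* to *Pik3cb*, 33.7 to 168 for *Pik3r2* to *Pik3r1* (54.1 for the means, the cause was not tested) and 1.31 to 1.39 for *Akt2* to *Akt1*. The half-life ratio was 1.18 to 2.01, 1.63 to 1.98, 0.985 to 1.38 and 1.08 to 1.17 for the first 3 pairs and the AKT pair.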

Other observations

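Transcripts of the PI3K classes that make other phosphoinositides, classes II and III, were measured as well. The class III complex makes PI3P on endosomes and autophagosomes, and mRNAs of 2 of its subunits were found in both lines. The regulatory subunit gene *Pik3r4* was at 118 FPKM in TAG/+ and 107 in TAG/TAG, and the catalytic subunit gene *Pik3c3* at 35.3 and 26.3 FPKM. Half-lives were 257 and 270 min for *Pik3r4* and 295 and 257 min for *Pik3c3*. Of the class II genes, *Pik3c2b* was at 21.7 and 35.1 FPKM (ratio 1.62, interval 1.49 to 1.77), *Pik3c2a* at 8.06 and 7.63 FPKM, and *Pik3c2g* at 0.846 and 2.04 FPKM from 20 and 52 reads.

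Among the kinases that share PDK1 with AKT, *Sgk1* was at 24.8 FPKM in TAG/+ and 48.2 in TAG/TAG (ratio 1.94, interval 1.71 to 2.20) with half-lives of 200 and 201 min, and *Sgk3* at 16.0 and 13.7 FPKM with half-lives of 212 and 296 min. *Foxo1*, a transcription factor excluded from the nucleus by AKT, was at 62.9 and 58.0 FPKM with half-lives of 112 and 181 min. All 4 listed markers of differentiating spermatogonia were lower in TAG/TAG, with a summed FPKM of 237 in TAG/+ and 172 in TAG/TAG, and 1 of them by at least 1.5-fold, while of all genes 50.2% were lower and 18.6% lower by at least 1.5-fold. The genes named in this section were chosen after their values were seen, and none of these differences has a replicate check.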
